A study of Mus musculus with 9 samples.

Results

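The transcripts of 9 enzymes of glycolysis and lactate formation were followed in epididymal adipose tissue of obese mice that lost weight. They were hexokinase 2 (*Hk2*), glucose phosphate isomerase (*Gpi1*), liver-type phosphofructokinase (*Pfkl*), aldolase A (*Aldoa*), triosephosphate isomerase (*Tpi1*), phosphoglycerate kinase (*Pgk1*), pyruvate kinase M (*Pkm*) and the lactate dehydrogenase subunits A and B (*Ldha*, *Ldhb*). Members were taken by symbol from a table of 56748 genes, and each symbol had 1 row in use. *Aldoa* had a further protein-coding row with 57 reads in all 9 libraries, and this row was not used. Male wild-type C57BL/6J mice were fed a high-fat diet (HFD) for 8 weeks from 8 weeks of age (Pre), and were then given a standard diet (SD) for 1 week (WL1) or 2 weeks (WL2). Each phase had 3 total RNA libraries of whole tissue, and all 3 phases share the 8 weeks of HFD. Mice kept on HFD or on SD throughout were not analysed here, so diet and time since the start of HFD cannot be told apart.

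Glycolysis splits glucose into pyruvate through a chain of cytosolic enzymes, and lactate dehydrogenase interconverts pyruvate and lactate. In adipocytes the pathway also supplies glycerol phosphate, the backbone of stored triglyceride, which is made from the triose phosphate that triosephosphate isomerase interconverts. White adipose tissue takes up glucose under insulin and releases lactate, and its macrophages also use glycolysis.

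Depth was 16434450 to 22729072 counts per library, and the lowest count of any of the 9 genes was 581 reads (*Ldhb*, WL1). The 9 genes took 0.421% to 0.466% of all counts in Pre, 0.276% to 0.347% in WL1 and 0.263% to 0.295% in WL2. The share taken by mitochondrially encoded genes was 3.15% to 3.57% in Pre, 1.86% to 2.03% in WL1 and 2.28% to 2.88% in WL2. The summed level of 12 T cell markers was 87.6 CPM (counts scaled to a common library size, by edgeR's TMM factors) in Pre replicate 2 and 9.84 to 18.4 in the other 8 libraries, so counts of changed genes were also computed without that library. The tissue label fitted its adipocyte markers, whose summed level over 15 genes was 28690 CPM or more in every library. Nothing in the labels says that replicates came from separate mice, so p-values measure the spread between these libraries.

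Promoter sequences are shown for the 4 enzymes that fell in both WL1 and WL2, since their transcripts moved together, and for *Ldhb*, whose course differed. RefSeq start sites on GRCm38.p6 matched all 9 genes and gave 13 windows, because *Ldha*, *Pkm* and *Aldoa* have several starts, and the first of the *Ldha* windows and the middle of the *Aldoa* windows are printed. Each line holds the 250 bases before the start, 5′ to 3′, and capitals mark the core of the hypoxia response element (ACGTG or GCGTG, on either strand).
Ldha, chr7:46845554-46845803, plus strand: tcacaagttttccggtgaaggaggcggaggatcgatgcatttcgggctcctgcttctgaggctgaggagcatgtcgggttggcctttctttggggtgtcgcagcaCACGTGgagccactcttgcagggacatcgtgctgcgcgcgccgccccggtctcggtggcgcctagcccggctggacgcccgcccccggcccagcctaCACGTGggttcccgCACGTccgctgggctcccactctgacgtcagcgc
Aldoa, chr7:126799255-126799504, minus strand: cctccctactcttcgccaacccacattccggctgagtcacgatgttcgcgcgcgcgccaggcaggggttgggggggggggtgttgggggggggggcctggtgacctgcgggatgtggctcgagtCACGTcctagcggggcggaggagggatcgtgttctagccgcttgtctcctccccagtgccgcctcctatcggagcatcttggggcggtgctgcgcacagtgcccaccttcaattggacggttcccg
Pfkl, chr10:78009808-78010057, minus strand: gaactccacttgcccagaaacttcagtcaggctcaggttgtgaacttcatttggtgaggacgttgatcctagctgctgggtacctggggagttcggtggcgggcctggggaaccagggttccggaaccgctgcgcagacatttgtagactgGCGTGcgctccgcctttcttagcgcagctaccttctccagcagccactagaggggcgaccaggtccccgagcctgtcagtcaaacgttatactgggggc
Tpi1, chr6:124814159-124814408, minus strand: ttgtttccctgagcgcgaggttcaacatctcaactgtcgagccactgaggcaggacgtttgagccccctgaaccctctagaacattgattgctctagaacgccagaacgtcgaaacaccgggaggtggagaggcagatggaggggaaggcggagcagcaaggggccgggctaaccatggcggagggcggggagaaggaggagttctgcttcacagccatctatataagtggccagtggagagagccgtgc
Ldhb, chr6:142507958-142508207, minus strand: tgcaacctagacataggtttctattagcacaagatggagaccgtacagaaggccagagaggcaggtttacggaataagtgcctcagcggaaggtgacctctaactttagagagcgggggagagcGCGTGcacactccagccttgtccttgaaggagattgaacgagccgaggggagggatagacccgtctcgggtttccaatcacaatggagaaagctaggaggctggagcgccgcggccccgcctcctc
The hypoxia core was found in 9 of the 13 windows, against 38.6% of 32851 windows of all genes, and in 7 of the 9 genes, against 41.5% of 27025 genes. The second and the third *Aldoa* window share 174 bases and the same single match, and genes with several windows have more chances of a match. *Tpi1*, the enzyme with the largest fall in WL2, had no match in its window, while the *Ldha* window had 5. An E-box (CACGTG), which contains an overlapping pair of hypoxia cores, was found only in *Ldha* among the members, at 2 places, and in 6.02% of all windows. The GC box GGGCGG was found in 8 of the 13 windows, against 32.7% of all windows. These matches describe letters in the windows and no factor was measured on them.

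**Figure D1:**
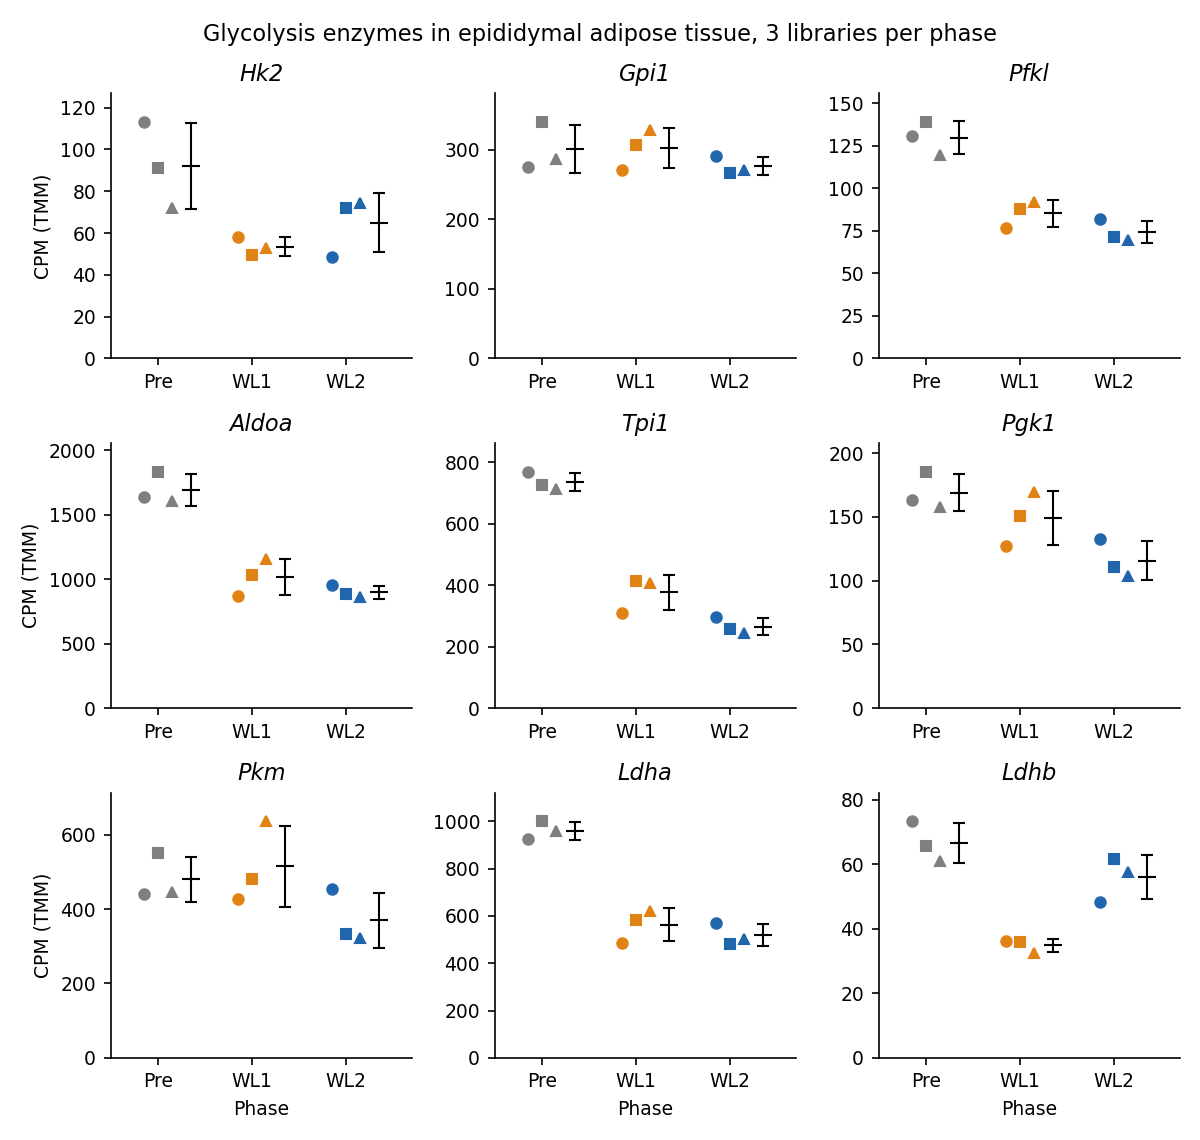
Level of each of the 9 enzymes (CPM scaled by TMM factors, linear axis from 0) in Pre, WL1 and WL2. Circles, squares and triangles are replicates 1, 2 and 3, and the black mark with its bar is the mean ± SD (n = 3). *Pfkl*, *Aldoa*, *Tpi1* and *Ldha* lie below all Pre libraries in both later phases. *Hk2* and *Ldhb* do so only in WL1 and *Pgk1* only in WL2, and *Gpi1* and *Pkm* overlap throughout.

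The first comparison set the enzymes after 1 week of SD against Pre. In WL1 against Pre, 6 of the 9 enzymes fell and none rose. These were *Hk2*, *Pfkl*, *Aldoa*, *Tpi1*, *Ldha* and *Ldhb*, and their mean levels in WL1 were 51.1% to 65.8% of those in Pre. Across 18510 genes tested, 7.29% passed the same threshold, 4.69% as lower and 2.6% as higher. In all 6 the WL1 libraries lay wholly below the Pre libraries, a pattern that 13.9% of all genes tested showed. The median log2 fold change of the 9 was -0.73, and that of all genes was 0.02. The levels are of whole tissue, where fewer cells of a type and less RNA per cell cannot be told apart. Without Pre replicate 2, 5 of the 9 passed, and *Hk2* was the one lost.

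The second comparison set them after 2 weeks of SD against Pre. In WL2 against Pre, 5 enzymes fell and none rose. They were *Pfkl*, *Aldoa*, *Tpi1*, *Pgk1* and *Ldha*, with mean levels of 36.0% to 68.4% of those in Pre. Of all genes tested 10% passed, 6.66% as lower and 3.35% as higher. The WL2 libraries of these 5 genes lay wholly below the Pre libraries, as did 15.8% of all genes tested. The median log2 fold change was -0.55 over the 9 enzymes and 0.01 over all genes. WL1 and WL2 are compared with the same Pre libraries, so the fall of *Pfkl*, *Aldoa*, *Tpi1* and *Ldha* in both is not seen in independent controls. Without Pre replicate 2, 4 of the 9 passed, and *Pgk1* was the one lost.

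The third comparison, WL2 against WL1, covers the second week of SD and uses no Pre library as a control. *Ldhb* rose and no other of the 9 enzymes passed the threshold, against 3.68% of all genes tested, 1.31% as higher and 2.37% as lower. This call did not hold in every fit that left out a single library, though the log2 fold change of *Ldhb* stayed at 0.60 to 0.77. These fits have fewer libraries, and over all genes they called 37 to 1351, against 681 with all libraries. Without WL1 replicate 2 or 3, or without WL2 replicate 2 or 3, none of the 9 passed, and without WL1 replicate 1 only *Tpi1* did, as lower.

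The first steps of the pathway differed among themselves. *Hk2* encodes the insulin-responsive hexokinase of muscle and fat, which traps glucose in the cell by phosphorylation. Its level was 113, 90.9 and 72.0 CPM in Pre, 58.3, 49.5 and 52.6 in WL1, and 48.5, 72.2 and 74.3 in WL2. All WL1 libraries lay below all Pre libraries, whereas WL2 replicates 2 and 3 reached the lowest Pre library. *Hk2* fell in WL1 by 0.78 ± 0.19 (log2 fold change ± SE, edgeR adjusted p = 0.038), and was at -0.50 ± 0.19 in WL2 (edgeR adjusted p = 0.13). The WL1 call for *Hk2* passed in 9 of 19 alternative fits and was lost without any 1 of 6 libraries (Pre replicates 1 and 2, WL1 replicates 1, 2 and 3, and WL2 replicate 2).

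*Gpi1* encodes the enzyme that converts glucose phosphate to fructose phosphate. Its level was 276, 340 and 286 CPM in Pre, 271, 307 and 328 in WL1, and 291, 267 and 271 in WL2. The 3 phases overlapped, and the log2 fold changes of 0.01 ± 0.12 in WL1 and -0.12 ± 0.12 in WL2 did not pass (edgeR adjusted p = 0.98 and 0.55). The sign of neither is settled, since *Gpi1* turned to -0.011 in WL1 with DESeq2 size factors and to 0.028 in WL2 with library totals alone.

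*Pfkl* encodes the liver-type subunit of phosphofructokinase, the main control point of glycolysis. Its level was 131, 139 and 120 CPM in Pre, 76.5, 87.9 and 91.6 in WL1, and 82.0, 71.3 and 69.7 in WL2. Every library after the diet change lay below every Pre library. *Pfkl* fell by 0.60 ± 0.11 in WL1 (edgeR adjusted p = 0.013) and by 0.80 ± 0.11 in WL2 (edgeR adjusted p = 0.0018) on the log2 scale. The WL1 call was lost without WL1 replicate 1, where the log2 fold change was -0.53.

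*Aldoa* encodes the aldolase that cuts fructose bisphosphate into the triose phosphates, and it was the most abundant of the 9 per length. It had 1637, 1835 and 1604 CPM in Pre, 873, 1033 and 1153 in WL1, and 952, 882 and 859 in WL2. No later library reached the Pre range. *Aldoa* fell by 0.73 ± 0.13 in WL1 (edgeR adjusted p = 0.0096) and by 0.92 ± 0.13 in WL2 (edgeR adjusted p = 0.0015), and passed in all 19 alternative fits of each comparison.

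*Tpi1* encodes the isomerase that interconverts glyceraldehyde phosphate, the glycolytic triose, and dihydroxyacetone phosphate, the precursor of glycerol phosphate. The 3 Pre libraries had 770, 728 and 714 CPM, the WL1 libraries 310, 413 and 407, and the WL2 libraries 295, 258 and 244. The phases did not overlap at all, with Pre highest and WL2 lowest. The fall was 0.97 ± 0.13 in WL1 (edgeR adjusted p = 0.0030) and 1.47 ± 0.14 in WL2 (edgeR adjusted p = 0.00013) on the log2 scale, and its point estimate was the largest of the 9 in both comparisons. In WL1 that of *Ldhb* lay within 1 SE of it. Between WL1 and WL2 the difference for *Tpi1* was -0.50 ± 0.13, which missed the threshold (edgeR adjusted p = 0.065). In that comparison 4 of 19 alternative fits passed, DESeq2 among them, and their adjusted p-values ranged from 0.011 to 0.24 over the 19 fits.

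*Pgk1* encodes the first ATP-forming enzyme of the pathway. Its level was 163, 186 and 158 CPM in Pre, 128, 151 and 169 in WL1, and 133, 111 and 103 in WL2. WL1 overlapped Pre and WL2 lay below it. The log2 fold change was -0.18 ± 0.14 in WL1 (edgeR adjusted p = 0.46), and *Pgk1* fell by 0.55 ± 0.14 in WL2 (edgeR adjusted p = 0.033). This call passed in 12 of 19 alternative fits and was lost without any 1 of 5 libraries (Pre replicates 1 and 2, WL1 replicate 2, and WL2 replicates 2 and 3).

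*Pkm* encodes the pyruvate kinase of muscle, fat and immune cells, which forms pyruvate and ATP. It had 442, 551 and 447 CPM in Pre, 427, 481 and 636 in WL1, and 455, 334 and 321 in WL2. WL1 replicate 3 was the highest library and WL2 replicates 2 and 3 the lowest, and each phase overlapped Pre. The log2 fold changes were 0.10 ± 0.18 in WL1 and -0.38 ± 0.18 in WL2 (edgeR adjusted p = 0.77 and 0.23). Without WL1 replicate 3 the WL1 value was -0.09. The counts do not separate the splice forms of *Pkm*.

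**Figure D2:**
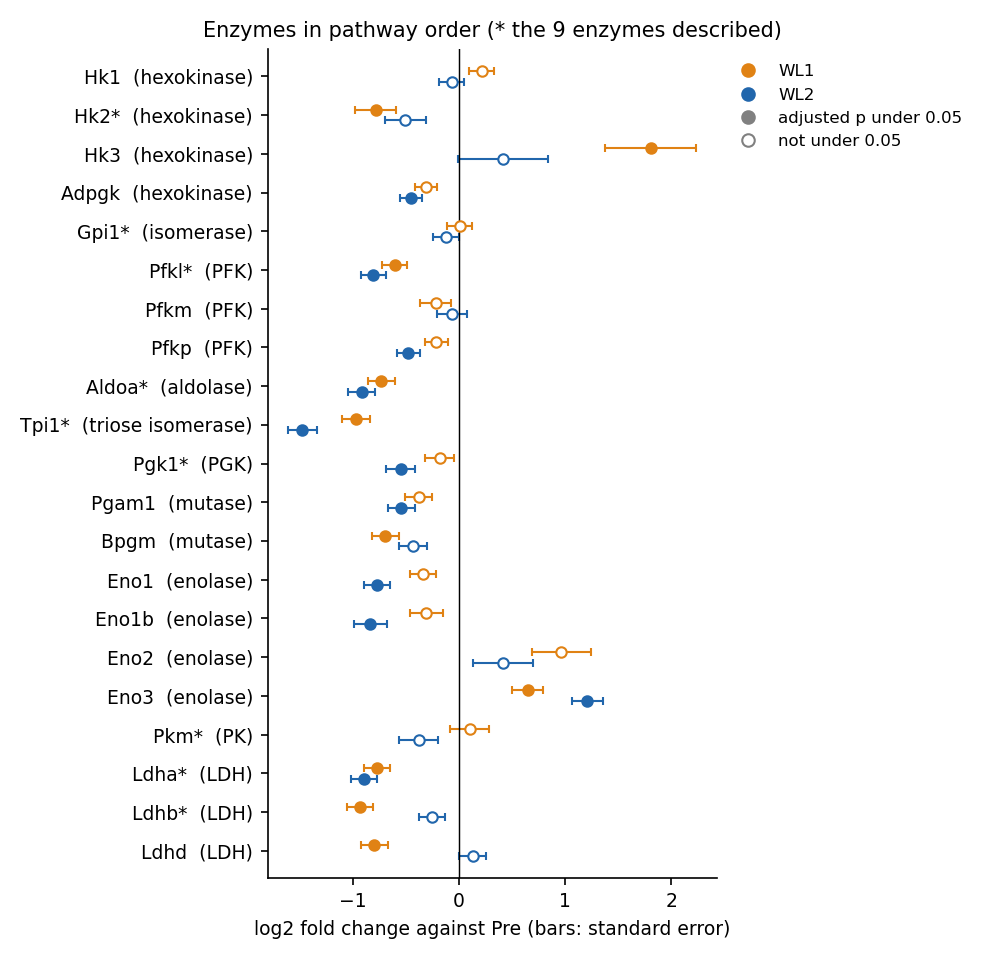
log2 fold change against Pre (bars: SE, edgeR) of the enzymes in pathway order from hexokinase to lactate dehydrogenase, for WL1 (orange) and WL2 (blue). *Gapdh*, whose counting is uncertain, and genes under 5 CPM are not drawn. Filled points passed an adjusted p of 0.05 over all genes. Of the enzymes drawn, the points for *Tpi1* lie furthest to the left, those for *Gpi1* near 0, and *Hk3* in WL1 furthest to the right at 1.81.

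The lactate dehydrogenase subunits took different courses. *Ldha* encodes the muscle-type subunit and *Ldhb* the heart-type subunit, and both join in the same tetramer. *Ldha* had 924, 1000 and 958 CPM in Pre, 484, 584 and 620 in WL1, and 571, 482 and 501 in WL2. It was lower in every later library, by 0.77 ± 0.12 in WL1 (edgeR adjusted p = 0.0061) and by 0.89 ± 0.12 in WL2 (edgeR adjusted p = 0.0015) on the log2 scale. *Ldhb* had 73.4, 65.7 and 61.1 CPM in Pre, 36.3, 35.9 and 32.7 in WL1, and 48.5, 61.7 and 57.7 in WL2. The 3 WL1 libraries lay below all others, and WL2 replicate 2 reached the Pre range. *Ldhb* fell by 0.93 ± 0.12 in WL1 (edgeR adjusted p = 0.0021), rose again by 0.68 ± 0.12 from WL1 to WL2 (edgeR adjusted p = 0.020), and stood at -0.25 ± 0.12 in WL2 against Pre (edgeR adjusted p = 0.21). The rise passed in 14 of 19 alternative fits, with adjusted p-values from 0.00013 to 0.11, and was lost without any 1 of 5 libraries (WL1 replicates 1, 2 and 3, and WL2 replicates 2 and 3).

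The ratio of *Ldha* to *Ldhb* reads within a library does not depend on the library's scaling. Its log2 value was 3.65, 3.93 and 3.97 in Pre, 3.74, 4.02 and 4.25 in WL1, and 3.56, 2.96 and 3.12 in WL2. The WL2 libraries lay below all others, with replicate 1 closest to them. The mean was 3.85 ± 0.17 in Pre, 4.0 ± 0.26 in WL1 and 3.21 ± 0.31 in WL2 (SD, n = 3), and the ratio differed across phases (exact permutation test over all assignments of the libraries to 3 phases of 3, p = 0.018, one-sided by construction). The difference was 0.15 between WL1 and Pre, -0.64 between WL2 and Pre and -0.79 between WL2 and WL1, with two-sided exact permutation p = 0.40, 0.10 and 0.10, where 0.10 is the smallest that 3 against 3 allows. Without 1 library the exact permutation p ranged from 0.014 to 0.071, and it missed 0.05 without any Pre library, without WL1 replicate 2 or 3, and without WL2 replicate 2. Per length, *Ldha* made up 87.2% ± 1.36 of the summed *Ldha* and *Ldhb* FPKM in Pre, 88.3% ± 1.84 in WL1 and 81.3% ± 3.14 in WL2 (SD, n = 3).

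**Figure D3:**
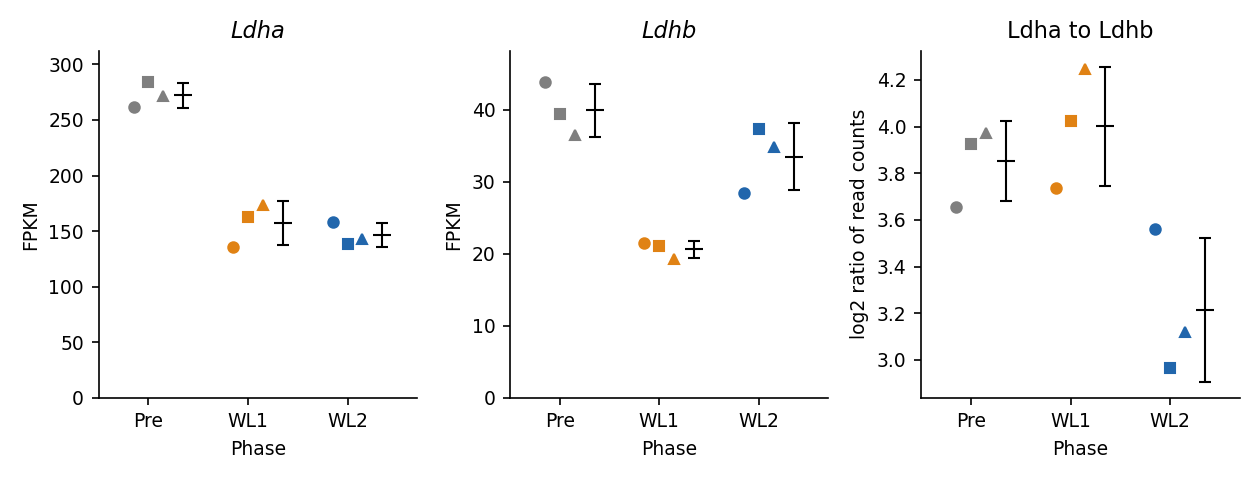
*Ldha* and *Ldhb* levels (authors' FPKM, linear axes from 0) and the log2 ratio of their read counts (axis not from 0) in each library. Circles, squares and triangles are replicates 1, 2 and 3, with the mean ± SD (n = 3) in black. *Ldha* stays low in WL2 at a mean of 147 FPKM, while *Ldhb* returns from 20.6 to 33.5 FPKM.

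In FPKM, which allow genes to be compared per length, the order of the 9 was the same in all 3 phases, from *Aldoa* over *Ldha*, *Tpi1*, *Pkm*, *Pgk1*, *Gpi1*, *Ldhb* and *Pfkl* to *Hk2*. *Aldoa* stood at 546 ± 40.7 FPKM in Pre and 289 ± 10.7 in WL2, and *Hk2* at 14.5 ± 3.22 and 10.2 ± 2.40 (SD, n = 3). Some neighbours in this order overlapped between libraries. These were *Ldha* and *Tpi1* in Pre and WL1, *Gpi1* and *Ldhb* in Pre, *Pfkl* and *Hk2* in Pre and WL2, and *Tpi1* and *Pkm* in WL1. *Tpi1* approached *Pkm* over the weeks, at 251 against 90.1 FPKM in Pre and 90.4 against 69.2 in WL2.

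Among libraries *Pfkl*, *Aldoa*, *Tpi1* and *Ldha* followed each other closely. Pearson's r of their log2 CPM over the 9 libraries, which include the phase differences, was 0.97 to 0.99 over their 6 pairs and -0.42 to 0.88 over the other 30 pairs of members. These 4 genes were picked after their values were seen, and r is given as a description. Of 9697 other protein-coding genes with at least 10 CPM, those most like *Tpi1* were *Gpd1*, the cytosolic glycerol phosphate dehydrogenase (r = 0.99), the aminopeptidase gene *Xpnpep1* (r = 0.99) and the glypican gene *Gpc1* (r = 0.99). *Gpd1* fell from 933 ± 86.0 CPM in Pre to 461 ± 45.4 in WL1 and 321 ± 40.3 in WL2 (SD, n = 3). Most like *Gpi1* were *Syngr2*, *Ptcd2* and *Slc35c1* (r = 0.97, 0.96 and 0.96), and none of these 3 passed the threshold in any comparison.

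Of 22 further glycolysis genes 17 were expressed enough to be tested. In WL1 2 rose and 2 fell, and in WL2 1 rose and 5 fell, with median log2 fold changes of -0.22 and -0.43. *Hk3*, a hexokinase of myeloid cells, rose from 31.2 ± 9.22 CPM in Pre to 109 ± 42.7 in WL1 (log2 fold change 1.81 ± 0.43, edgeR adjusted p = 0.033) and stood at 41.6 ± 27.3 in WL2. The WL2 libraries ranged from 25.6 to 73.1 CPM, with replicate 1 highest. By FPKM *Hk2* made up 49.8% ± 9.33 of *Hk1*, *Hk2* and *Hk3* in Pre, 19.9% ± 4.97 in WL1 and 39.3% ± 13.8 in WL2 (SD, n = 3), and *Hk3* 27.5% ± 7.71, 62.1% ± 9.12 and 37.1% ± 17.4. *Hk1*, the widely expressed hexokinase, stood at 0.22 in WL1 and -0.07 in WL2 (log2 fold change) and did not pass.

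At the phosphofructokinase step the platelet-type *Pfkp* fell by 0.48 ± 0.11 in WL2 (edgeR adjusted p = 0.021), and the muscle-type *Pfkm* stood at -0.06. *Pfkl* made up 52.2% ± 2.27 of the FPKM of the 3 subunits in Pre and 43.1% ± 3.03 in WL2 (SD, n = 3). Phosphoglycerate mutase *Pgam1* fell by 0.54 ± 0.13 in WL2 (edgeR adjusted p = 0.024), and *Bpgm*, which makes bisphosphoglycerate, fell by 0.69 ± 0.13 in WL1 (edgeR adjusted p = 0.013). The main enolase gene *Eno1* had 772, 825 and 715 CPM in Pre and 504, 433 and 420 in WL2, a fall of 0.77 ± 0.12 (edgeR adjusted p = 0.0032). *Eno1b*, a near-identical copy that can share its reads, fell by 0.83 ± 0.16 in WL2 (edgeR adjusted p = 0.0088). The muscle enolase *Eno3* went the other way, from 7.67 ± 0.39 CPM in Pre to 12.0 ± 1.03 in WL1 and 17.8 ± 2.42 in WL2, and rose by 0.65 ± 0.15 and 1.21 ± 0.15 (edgeR adjusted p = 0.026 and 0.00070). Its share of enolase FPKM was 2.83% in Pre and 10.3% in WL2. The skeletal muscle list, measured beside it, summed to 45.0 to 63.1 CPM in Pre and 12.3 to 26.9 in WL2. This sum does not stand for the whole list, since only 8 of its 12 genes were tested and 2 were at 0 in all libraries. In WL2 against Pre 3 of the 8 were higher and 5 lower, with a median log2 fold change of -0.20, and 2 passed as lower. The neuronal *Eno2* stood at 0.97 in WL1 and 0.42 in WL2 and did not pass.

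*Ldhd*, the mitochondrial D-lactate dehydrogenase, followed the course of *Ldhb*. Its mean was 29.2 ± 3.21 CPM in Pre, 16.8 ± 1.84 in WL1 and 31.9 ± 2.25 in WL2 (SD, n = 3), a fall of 0.79 ± 0.13 and a rise of 0.92 ± 0.13 (edgeR adjusted p = 0.0067 and 0.0080). *Adpgk*, which encodes an ADP-dependent sugar kinase, fell by 0.45 ± 0.11 in WL2 (edgeR adjusted p = 0.026). *Gapdh*, the dehydrogenase between *Tpi1* and *Pgk1*, was counted at 37.9 CPM in Pre replicate 1 and at 3.80 to 6.18 CPM in the other 8 libraries. Its log2 fold changes of -1.65 ± 0.68 in WL1 and -1.57 ± 0.68 in WL2 did not pass (edgeR adjusted p = 0.17 and 0.18). The mouse genome holds many near-identical *Gapdh* copies, and the sources used here do not say how reads with several matches were counted, so its level is uncertain.

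Around the pathway, the genes that set fructose bisphosphate levels were tested as a list of 7. None passed in WL1 and 2 fell in WL2. *Pfkfb3* makes the activator of phosphofructokinase, and its level was 1157, 785 and 811 CPM in Pre, 628, 718 and 574 in WL1, and 425, 425 and 377 in WL2. It fell in WL2 by 1.17 ± 0.16 (edgeR adjusted p = 0.0016), and its kin *Pfkfb4* by 1.13 ± 0.21 (edgeR adjusted p = 0.0072).

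Among 13 genes of pyruvate dehydrogenase, its kinases and phosphatases and pyruvate carboxylase, 3 rose and 4 fell in WL1, and 2 rose and 3 fell in WL2. *Pdk4*, a kinase that switches pyruvate dehydrogenase off, rose from 74.7, 64.1 and 103 CPM in Pre to 201, 246 and 332 in WL1 and 261, 149 and 212 in WL2, by 1.69 ± 0.25 and 1.36 ± 0.25 (edgeR adjusted p = 0.0045 and 0.0079). *Pdk2*, a kinase of the same kind, rose in WL2 by 0.90 ± 0.14 (edgeR adjusted p = 0.0035). The pyruvate carboxylase gene *Pcx* had 1189, 1238 and 1079 CPM in Pre and 527 to 643 CPM in the 6 later libraries, a fall of 0.95 ± 0.12 in WL1 and 1.03 ± 0.12 in WL2 (edgeR adjusted p = 0.0015 and 0.00048). *Dlat*, a core subunit of pyruvate dehydrogenase, fell by 0.51 ± 0.10 in each (edgeR adjusted p = 0.018 and 0.013).

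Of 10 lactate and pyruvate transporter genes 8 were tested, 2 of which fell in WL1 and 1 in WL2. *Mpc2*, a subunit of the mitochondrial pyruvate carrier, fell by 0.91 ± 0.15 and 0.93 ± 0.15 (edgeR adjusted p = 0.0068 and 0.0035). Its partner *Mpc1* fell in WL1 by 0.63 ± 0.16 (edgeR adjusted p = 0.043), and *Emb*, an accessory protein of the lactate carriers, fell by 1.00 ± 0.23 from WL1 to WL2 (edgeR adjusted p = 0.044). The lactate carriers *Slc16a1* and *Slc16a3* did not pass in any comparison.

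Of 11 glycogen genes 6 fell in WL1 and 3 in WL2, and from WL1 to WL2 3 rose and 1 fell. *Gys2*, the liver-type glycogen synthase, had 16, 22.6 and 29.3 CPM in Pre, 4.94, 4.32 and 10.8 in WL1, and 0.93, 1.19 and 1.04 in WL2, and fell by 1.76 ± 0.34 and 4.42 ± 0.40 (edgeR adjusted p = 0.014 and 0.00012). The muscle-type synthase *Gys1* fell by 0.79 ± 0.13 and 0.51 ± 0.13, and the branching enzyme *Gbe1* by 1.16 ± 0.13 and 0.49 ± 0.13. The phosphorylase *Pygb* fell in WL1 by 1.15 ± 0.18 (edgeR adjusted p = 0.0061) and stood at -0.58 ± 0.18 in WL2 (edgeR adjusted p = 0.073).

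Among 10 genes of the glycerol phosphate and malate shuttles, 1 rose and 3 fell in WL1 and 1 fell in WL2. *Gpd1*, already named for its likeness to *Tpi1*, fell by 1.02 ± 0.13 and 1.54 ± 0.13 (edgeR adjusted p = 0.0021 and 9.3e-05). The malate dehydrogenases *Mdh1* and *Mdh2* fell in WL1 by 0.60 ± 0.10 and 0.47 ± 0.11, and *Slc25a13*, an aspartate and glutamate carrier, rose by 1.57 ± 0.42 (edgeR adjusted p = 0.0082, 0.038 and 0.049).

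Of 18 hypoxia response genes outside glycolysis 1 rose and 1 fell in WL1 and 2 rose and 2 fell in WL2, with median log2 fold changes of 0.07 and 0.12. *Adm*, the vasodilator adrenomedullin, rose by 0.81 ± 0.15 and 0.80 ± 0.15 (edgeR adjusted p = 0.012 and 0.0078). *Ndrg1*, a stress-responsive gene, rose in WL2 by 0.91 ± 0.13 (edgeR adjusted p = 0.0016). *Higd1a*, a mitochondrial protein gene, fell by 0.93 ± 0.17 and 1.01 ± 0.17 (edgeR adjusted p = 0.012 and 0.0050). The transcript of *Hif1a*, the oxygen-regulated factor itself, fell in WL2 by 0.63 ± 0.14 (edgeR adjusted p = 0.016).

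Leaving out 1 library at a time showed which calls outside the 9 enzymes passed in every such fit. Over all genes these fits called 512 to 1500 in WL1 (1350 with all libraries) and 743 to 1688 in WL2 (1853). With fewer libraries less can be called, so a lost call is not shown to rest on 1 library. All 9 such fits kept *Pdk4*, *Pcx*, *Mpc2*, *Gpd1* and *Adm* in WL1 and WL2, *Ldhd*, *Gys1*, *Gbe1*, *Pygb* and *Mdh1* in WL1, and *Eno1*, *Eno1b*, *Eno3*, *Pfkfb3*, *Pfkfb4*, *Pdk2*, *Gys2*, *Ndrg1* and *Higd1a* in WL2. In WL1 the call was lost without WL1 replicate 1 for *Gys2* and *Higd1a*, without WL1 replicate 3 for *Bpgm*, without Pre replicate 1 or WL1 replicate 1 or 3 for *Dlat*, and without Pre replicate 1 or 3 or WL1 replicate 2 or 3 for *Hk3*. *Eno3* in WL1 was lost without Pre replicate 1 or 2 or any WL1 library. *Mdh2* passed in 3 of the 9 fits, *Slc25a13* in 2 and *Mpc1* in 1. In WL2 the call was lost without WL2 replicate 2 or 3 for *Dlat* and *Hif1a*, with Pre replicate 2 also for *Pgam1* and Pre replicates 1 and 2 also for *Adpgk*, and without Pre replicate 3 or WL2 replicate 1 or 2 for *Pfkp*. *Gys1* in WL2 passed in 3 of the 9 fits and *Gbe1* in 1. From WL1 to WL2 the rise of *Ldhd* was lost without WL2 replicate 2, and *Emb* passed in 3 of the 9 fits.

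**Figure D4:**
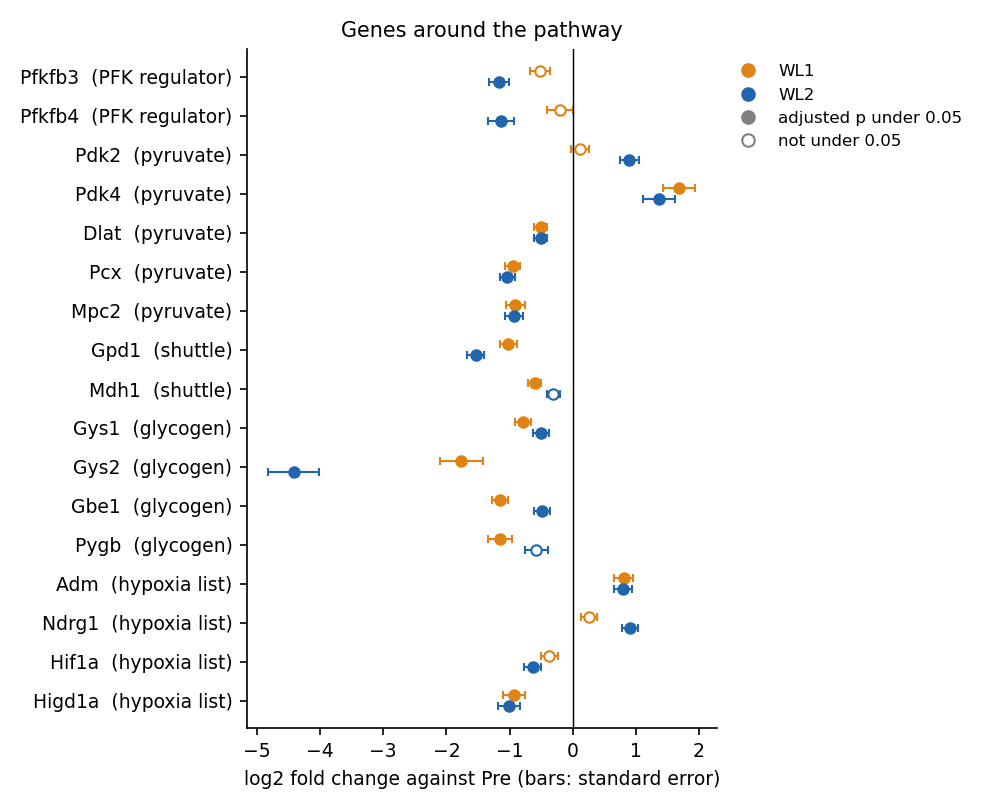
log2 fold change against Pre (bars: SE, edgeR) of named genes around glycolysis for WL1 (orange) and WL2 (blue), filled where the adjusted p was under 0.05 over all genes. *Gys2* in WL2 lies furthest to the left at -4.42, and *Pdk4* in WL1 furthest to the right at 1.69.

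The summed levels of several marker lists differed between phases. Of all genes tested 7.29% passed in WL1 against Pre, 10% in WL2 against Pre and 3.68% in WL2 against WL1. The counts of markers that passed stand beside these shares, and a low count in a short list can lie near them. By edgeR none of the 10 endothelial and 12 T cell markers passed in any comparison. Of the T cell markers, 7 had an unadjusted p under 0.05 in WL2 against Pre. The 20 macrophage markers, none of which was at 0, summed to 2382, 4598 and 3806 CPM in Pre, 4658, 5331 and 8668 in WL1, and 4972, 2650 and 2952 in WL2. Of these, 1 passed as higher in WL1 and none in WL2 by edgeR, where 10 and 1 had an unadjusted p under 0.05 and DESeq2 called 7 and none. Of 18 lipid-associated macrophage genes 7 rose in WL1 and 1 in WL2. The 15 adipocyte markers summed to 45036 to 59357 CPM in Pre, 28690 to 37349 in WL1 and 46411 to 48036 in WL2, and 6 fell and none rose in WL1, 2 rose and 4 fell in WL2, and 4 rose and 2 fell from WL1 to WL2. Red cell genes, 6 in all, summed to 989 to 1617 CPM in Pre, 360.0 to 596 in WL1 and 421 to 784 in WL2. The 8 B cell markers summed to 1126 to 2740 CPM in Pre, 177 to 302 in WL1 and 161 to 254 in WL2, and 1 of them fell in each. The 10 fibroblast markers summed to 8852 to 12017 CPM in Pre, 10124 to 10613 in WL1 and 14052 to 18065 in WL2, where 2 rose. This sum does not stand for the whole list. In WL2 against Pre 6 of the 10 were higher and 4 lower, with a median log2 fold change of 0.22. The 8 neutrophil markers summed to 20.3 to 24.3 CPM in Pre, 11.2 to 14.8 in WL1 and 5.83 to 11.1 in WL2, and the 12 cell division genes to 89.2 to 129 CPM, 157 to 188 and 35.2 to 90.8. Only 4 of the 8 neutrophil markers were expressed enough to be tested. In WL2 against Pre 2 of these were higher and 2 lower, with a median log2 fold change of 0.39, and 1 passed as lower. In each phase the library with the highest macrophage sum was also the highest for 6 of the 9 enzymes (*Gpi1*, *Pfkl*, *Aldoa*, *Pgk1*, *Pkm* and *Ldha*), and *Gpi1*, *Ldha* and *Hk3* had the same order as that sum in all 3 phases. *Hk2* and *Ldhb* were highest in another library in each phase. For the adipocyte sum 0 of the 9 enzymes matched in this way. The match was not particular to the macrophage list, since the B cell sum was highest in the same library in each phase. The lipid-associated macrophage sum shared that library in WL1 and WL2, but was lowest in Pre replicate 2, at 15280 CPM. How many of all genes share the match was not computed. The part of these cells in the levels of the enzymes was not tested.

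**Figure D5:**
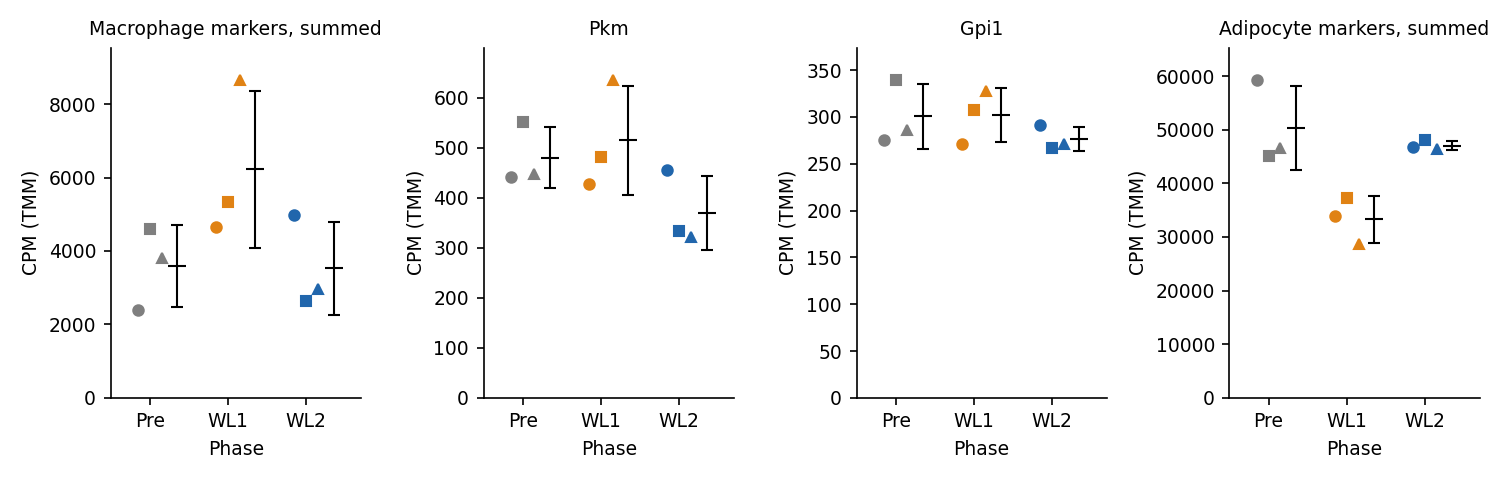
Summed macrophage markers (20 genes), *Pkm*, *Gpi1* and summed adipocyte markers (15 genes) in each library (CPM scaled by TMM factors, axes from 0). Circles, squares and triangles are replicates 1, 2 and 3, with the mean ± SD (n = 3) in black. WL1 replicate 3 has the highest macrophage sum (8668 CPM) and *Pkm* level (636 CPM) and the lowest adipocyte sum (28690 CPM).

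The 9 genes lie at the following positions as the deposited table gives them. *Hk2* (ENSMUSG00000000628) is on chromosome 6 from 82702006 to 82751435, *Tpi1* (ENSMUSG00000023456) on 6 from 124787549 to 124791259 and *Ldhb* (ENSMUSG00000030246) on 6 from 142435975 to 142453683. *Gpi1* (ENSMUSG00000036427) is on chromosome 7 from 33900755 to 33929761, *Ldha* (ENSMUSG00000063229) on 7 from 46490899 to 46505051 and *Aldoa* (ENSMUSG00000030695) on 7 from 126394406 to 126399923. *Pkm* (ENSMUSG00000032294) is on chromosome 9 from 59563651 to 59586658, *Pfkl* (ENSMUSG00000020277) on 10 from 77822781 to 77845917 and *Pgk1* (ENSMUSG00000062070) on X from 105230706 to 105247305. The submitters' notes name GRCm38, yet 0 of these 9 positions equal those of a GRCm38 annotation. Of 52125 genes shared with that annotation, 1524 have the same start and end. *Ldha* starts at 46490899 here, while its printed GRCm38.p6 promoter window ends at 46845803. These positions are thus not on GRCm38, although no source used here names another build, and they must not be joined with the promoter coordinates. The span of *Pkm* overlaps *Gm49759* (1405 reads against 76597) on the same strand. The spans of *Aldoa*, *Tpi1* and *Hk2* overlap *Tlcd3b* (3500 reads against 202664), *Spsb2* (2274 against 77841) and *Gm17034* (5 against 11662) on the opposite strand. The sources used here do not say whether counting used strand. Pseudogene rows named for *Tpi1* held 638 reads, for *Ldha* 282 and for *Pgk1* 124.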

How the data were processed

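Epididymal adipose tissue RNA of 3 phases (Pre, WL1, WL2) with 3 libraries each was sequenced by a service provider. The authors deposited a table of raw read counts per gene and a table of FPKM (fragments scaled by gene length and by library). The submitters' processing notes name HISAT2, HISAT, TopHat2, CASAVA, GRCm38 and mm10 with no role, and no source names the counting program. Genes under 0.5 CPM in all 9 libraries were dropped, and the counts of the other 18510 were fitted in 1 model over the 9 libraries with edgeR 4.0.16 (R 4.3.3) by TMM factors and the quasi-likelihood test. P-values were Benjamini-Hochberg adjusted over all genes, at a threshold of 0.05. The SE given with an edgeR log2 fold change is its absolute value divided by the square root of the quasi-likelihood F statistic. It thus restates that test and is not a separate estimate. CPM were scaled by TMM factors. FPKM were used for levels per length and, with a pseudocount of 1 or 0.1, in limma 3.58.1. DESeq2 1.42.0, other scalings and filters, a replicate block and leaving out each library were the alternatives. The model was tested on simulated counts, with genes changed by a set fold in WL2 against Pre. It recovered 15 of 67 genes changed 1.5-fold, 61 of 67 changed 2-fold and 65 of 66 changed 4-fold, with 7 false calls. A change of 1.5-fold was thus mostly missed there. The 9 genes and all lists were chosen with earlier results of these data known. All 9 genes are named. Of each pathway list, up to 4 genes past the threshold with the largest change in WL2 against Pre are named, and of the further glycolysis genes all with at least 5 CPM. No replicate pair was identical. Same-numbered libraries were not tied by the labels, and correlations of their deviations from the phase means ran from -0.277 to 0.107, so the numbers were not taken to pair them.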

Additional observations from a re-analysis of the deposited data

How the results depend on the processing

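Across 19 alternative fits the fall of *Aldoa*, *Tpi1* and *Ldha* in WL1 and in WL2, of *Pfkl* in WL2 and of *Ldhb* in WL1 passed the threshold each time. Of 513 values of single enzymes under the alternatives, 473 kept direction and side of the threshold, 23 lost and 4 gained it, and 13 changed sign. The sign changes were in genes that had not passed. *Gpi1* in WL1 was 0.007 and became -0.011 with DESeq2 size factors, -0.03 with upper quartile factors, -0.01 with DESeq2, -0.024 with 0.5 CPM in 3 libraries, -0.014 with the compared phases alone, -0.011 and -0.012 with limma on FPKM plus 1 and plus 0.1, and -0.064 to 0.104 without 1 library. *Gpi1* in WL2 was 0.028 with library totals alone. *Pkm* in WL1 ranged from -0.087 to 0.219 without 1 library. Library totals alone moved the median of all genes to 0.12 in WL1 and 0.16 in WL2, and the split from 482 higher and 868 lower to 1003 and 642 in WL1, and from 620 and 1233 to 1495 and 835 in WL2; of the 9 enzymes 5 and 4 then passed, all lower. Without 1 library 4 to 6 passed in WL1, 4 to 5 in WL2 and 0 to 2 in WL2 against WL1, where DESeq2 and no filter gave 2 each.

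Over all genes DESeq2 called 2241 in WL1 against Pre (edgeR 1350) and 1854 in WL2 against WL1 (edgeR 681), no filter 1668 and the compared phases alone 1053 in the latter. Without 1 library the counts ran from 512 to 1500, from 743 to 1688 (edgeR 1853) and from 37 to 1351. The replicate number as a block gave 844 in WL1 against Pre and 330 in WL2 against WL1, and under the block *Hk2* in WL1 and *Pgk1* in WL2 no longer passed. The log2 ratio of *Ldha* to *Ldhb* in WL2 against Pre was -0.637, and -0.81 to -0.512 without 1 library. The cause of these moves was not tested. Fewer samples, as in the fits without a library, and 3 libraries per phase limit what can be called; pairwise permutation tests cannot go below 0.10.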
